A study of Mus musculus with 24 samples.

Results

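The clustered histone genes are the genes of the core and linker histones that stand together in a few places in the genome. All entries of the deposited gene table whose symbol begins with Hist1h, Hist2h, Hist3h or Hist4h were taken, which gave 68 of 23306 genes. They comprised 6 H1, 18 H2A, 19 H2B, 12 H3 and 13 H4 genes, 54 of them in the Hist1 cluster, 10 in Hist2, 3 in Hist3 and 1 (Hist4h4) on its own. The libraries were made from dentate gyrus, a hippocampal region that adds neurons throughout adult life, of female C57BL6 mice carrying Tg(Nestin-cre/ERT2)::RPL22HA/WT. Tamoxifen (160 mg/kg a day for 5 days, at 9 to 11 weeks of age) switches on the recombinase in cells that express Nestin, and their ribosomes, with those of their descendants, then carry an HA tag on Rpl22. RNA was sequenced from the precipitate of tagged ribosomes (IP, 12 libraries) and from dentate gyrus without precipitation (input, 12 libraries). Running mice had a turning wheel and sedentary mice a blocked one, for 11, 18 or 27 days, with 2 libraries for each combination of fraction, activity and day. All mice of all groups carried the transgenes and received tamoxifen. The Nestin promoter acts in stem cells, so that the tagged cells can include astrocyte-like stem cells, dividing progenitors and young neurons. The labels give neither the number of mice in a library nor whether libraries came from separate mice, so p-values measure the spread between these libraries, which may be technical.

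Replication-dependent histone genes are transcribed mainly during S phase, when new DNA has to be packed. Their messages have no introns and, unlike other messages, end in a short stem-loop in place of a poly(A) tail. The stem-loop is bound by Slbp, which carries the message to processing, translation and, at the end of S phase, decay. H2A, H2B, H3 and H4 form the nucleosome core, and H1 binds the DNA where it enters and leaves the nucleosome. In some differentiated cells certain of these genes also give polyadenylated transcripts that run past the stem-loop. The library kit named in the labels primes total RNA at random, so that messages without a poly(A) tail are read too.

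The stem-loop was looked for as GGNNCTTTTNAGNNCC after the stop codon in the GENCODE M21 transcripts (assembly GRCm38, the mm10 build). It was found in 44 of the 67 members with a coding transcript. The pattern also stood in 0.0551% of 141689 transcripts of other genes, which were searched over their whole length. These shares come from unlike searches, of genes and of transcripts. Of the other members, 13 have no annotated 3′ UTR and 2 (Hist1h2af and Hist1h2ah) have one shorter than the pattern, so nothing could be searched, and 8 have a longer one without these letters. The sequences below are shown because they carry the main forms and belong to genes described below, with the 16 stem-loop bases in capitals:
Hist1h3b: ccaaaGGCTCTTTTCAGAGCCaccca
Hist1h1c: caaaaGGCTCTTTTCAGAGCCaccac
Hist1h2bk: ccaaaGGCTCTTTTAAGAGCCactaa
Hist3h2a: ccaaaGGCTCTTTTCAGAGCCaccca
Hist1h4d: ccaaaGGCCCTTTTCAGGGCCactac
Hist1h4b: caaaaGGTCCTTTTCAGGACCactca
Hist4h4: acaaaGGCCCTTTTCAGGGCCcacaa
The form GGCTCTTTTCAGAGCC stood in 26 members, all of them H1, H2A, H2B or H3 genes, and 6 others of these classes had an A in the loop (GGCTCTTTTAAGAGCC). The 11 H4 genes with the pattern had another stem in every case, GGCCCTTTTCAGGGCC in 7 of them. The stem-loop began 21 to 58 bases after the stop codon (median 31.0). In 22 members the annotated transcript ends within 100 bases after the stem-loop, and in 22 it runs on further, by 2445 bases in Hist4h4 and 1643 bases in Hist3h2a.

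Promoters of 62 members were present in a RefSeq table (assembly GRCm38.p6) as the 250 bases before the annotated start and a short stretch after it. The shares below count motifs over the whole of this sequence. The letters TATAAA, on either strand, stood in 56.5% of them, against 13.6% of 32851 promoters of the same length in the table. In Hist1h2ad, Hist1h2ah, Hist1h2ak, Hist1h4a, Hist1h4j and Hist2h2aa1 these letters did not lie wholly before the start. CCAAT stood in 85.5% against 37.4%, in all promoters of H1, H2A, H2B and H3 members but in 25.0% of those of H4 members. In the H3 genes Hist2h3c1 and Hist2h3c2 it did not lie wholly before the start. ATTTGCAT, the octamer known from H2B promoters, stood in 38.9% of H2A and 37.5% of H2B promoters and in 1.74% of all, and in none of the H1, H3 or H4 promoters. The 150 bases before the start are shown for an H3, an H2B and an H4 gene that were high in the IP and for Hist4h4, which differed from them, with these letters (or their reverse complements) in capitals:
Hist1h3b: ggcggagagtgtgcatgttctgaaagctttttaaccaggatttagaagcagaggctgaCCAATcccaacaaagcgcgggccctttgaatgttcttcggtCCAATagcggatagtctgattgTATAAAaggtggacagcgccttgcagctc
Hist1h2bm: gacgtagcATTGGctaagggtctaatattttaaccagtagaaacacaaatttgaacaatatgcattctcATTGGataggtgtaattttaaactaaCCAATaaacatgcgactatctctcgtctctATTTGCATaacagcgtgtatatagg
Hist1h4d: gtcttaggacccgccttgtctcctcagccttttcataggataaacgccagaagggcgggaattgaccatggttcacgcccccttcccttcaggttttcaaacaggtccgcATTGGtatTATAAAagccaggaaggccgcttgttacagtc
Hist4h4: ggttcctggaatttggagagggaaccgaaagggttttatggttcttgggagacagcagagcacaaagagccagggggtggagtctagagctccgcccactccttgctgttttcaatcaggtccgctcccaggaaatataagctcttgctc
They lie at chr13:23752195-23752344, plus strand, chr13:21721894-21722043, plus strand, chr13:23581418-23581567, plus strand, and chr6:136804432-136804581, minus strand, and are read 5′ to 3′ along the gene. Hist4h4 holds none of the 3 motifs in its 250 bases. The absence or presence of such letters shows no binding. In 14 places members stand head to head with their starts at most 1000 bases apart, as Hist1h2ag and Hist1h2bj with 270 bases between them, so that such pairs share 1 promoter region.

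Members resemble each other closely, and this limits what a single gene's value means. The coding sequences of Hist1h2ao and Hist1h2ap, Hist1h2bq and Hist1h2br, Hist1h4m and Hist1h4n, and Hist2h2aa1 and Hist2h2aa2 are identical, and those of Hist2h3b and Hist2h3c2 differ at 1 base. Hist1h2bq and Hist1h2br had the same value in 24 of 24 libraries. Hist1h2ad and Hist1h2ag, which differ at 2 bases, lay at 0 to 350.2 TPM and 49.3 to 292 TPM over the IP libraries. How reads were shared between such copies is not given in the sources used here, nor is the strand setting, so single members of these groups are uncertain and sums over a class depend less on it. Hist3h2bb-ps is annotated as a processed pseudogene.

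Values are TPM, which keep no read depth, so the depth per library is unknown and no counting interval can be given. Markers of young neurons, which can be among the tagged cells, were high in the IP, while Nestin was not among the listed markers. Dcx, a protein of young neurons, averaged 119 ± 41.6 TPM in IP libraries and 14.7 ± 1.35 TPM in input (SD, n = 12 each), and all 10 immature neuron markers were higher in the IP. All 10 microglia and all 10 interneuron markers were lower there. Of 10 astrocyte markers, 4 were higher and 3 lower, Gfap averaged 409.5 ± 88.6 TPM in IP and 279.9 ± 35.0 TPM in input libraries, and S100b was among the 3. Of 10 oligodendrocyte markers, 8 were lower and 1 higher. Of all tested genes, 41.4% were higher and 28.5% lower, and the astrocyte counts lie near these shares. The running IP library a of day 11 stood apart, with 17.4% of its TPM on Rpph1, an abundant noncoding RNA, against 4.58 to 9.16% in the other IP libraries. Among input libraries, those of day 18 had a median olfactory receptor gene of 3.50 to 7.56 TPM, against 0 to 1.76 TPM at day 11 and 1.02 to 2.52 TPM at day 27. These genes belong to the nose, and in the IP libraries their median lay at 0 to 0.87 TPM.

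Histone messages made up more of the precipitated RNA than of the input, and their share in the IP fell with time. In the IP the 68 genes summed to 6966 ± 1048, 5008 ± 918 and 3963 ± 381 TPM at days 11, 18 and 27 (SD, n = 4 libraries each). In input they summed to 1835 ± 133, 1683 ± 58.5 and 1679 ± 109.5 TPM on these days. The lowest IP library, at 3638 TPM, held more than the highest input library, at 1967 TPM. In a bulk sample, fewer cells of a type and less RNA per cell cannot be told apart, and TPM are shares of a library, not amounts.

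**Figure D1:**
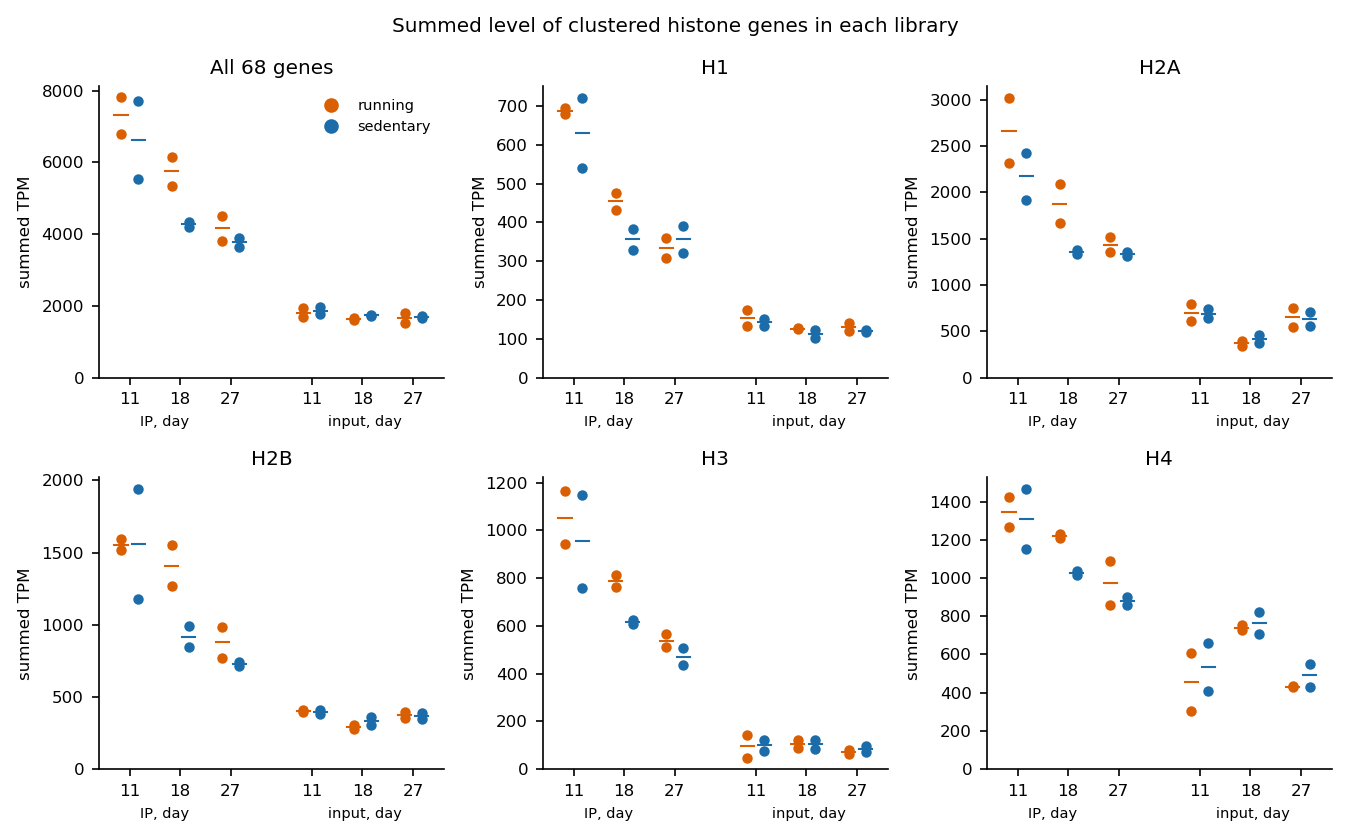
Summed TPM of all 68 clustered histone genes and of each class in every library, with IP left of input, days from low to high and running left of sedentary within a day; points are libraries and short lines the mean of 2. The IP libraries of day 11 lie at 5548 to 7815 TPM, those of day 27 at 3638 to 4511 TPM, and the input libraries at 1531 to 1967 TPM.

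The classes took unequal parts of this. In the IP, H2A genes gave 34.0 ± 2.20% of the histone TPM, H2B 21.8 ± 2.22%, H4 21.7 ± 2.28%, H3 13.7 ± 0.941% and H1 8.79 ± 0.873% (SD, n = 12). In input, H3 genes gave only 5.38 ± 1.52% and H4 genes 32.9 ± 9.81%. The summed H3 level was 7.87 times as high in the IP as in input, that of H1 3.59 times, of H2B 3.25 times, of H2A 3.13 times and of H4 1.98 times. These ratios are of mean summed TPM.

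The 3 most abundant members of each class were these. Among linker histones the highest means in the IP were those of Hist1h1c, at 147 ± 56.0 TPM, Hist1h1e, at 117 ± 41.9 TPM, and Hist1h1a, at 78.4 ± 28.1 TPM (SD, n = 12). Hist1h1c and Hist1h1e encode H1.2 and H1.4, the linker histones most common in somatic cells. Hist2h2aa1 was the highest of all members in the IP, at 448 ± 102 TPM, with Hist1h2ao at 230.2 ± 142 TPM and Hist2h2ac at 179.6 ± 49.1 TPM next among H2A genes. Of the H2B genes, Hist2h2bb stood at 262 ± 125 TPM, Hist1h2bk at 176 ± 67.4 TPM and Hist1h2bc at 154 ± 42.4 TPM. The H3 genes were led by Hist2h3b at 124 ± 68.9 TPM, Hist1h3b at 104 ± 41.1 TPM and Hist1h3e at 91.2 ± 26.7 TPM. Hist1h4d led the H4 genes at 333 ± 102 TPM, above Hist1h4h at 215 ± 49.974 TPM and Hist1h4k at 113 ± 29.3 TPM.

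**Figure D2:**
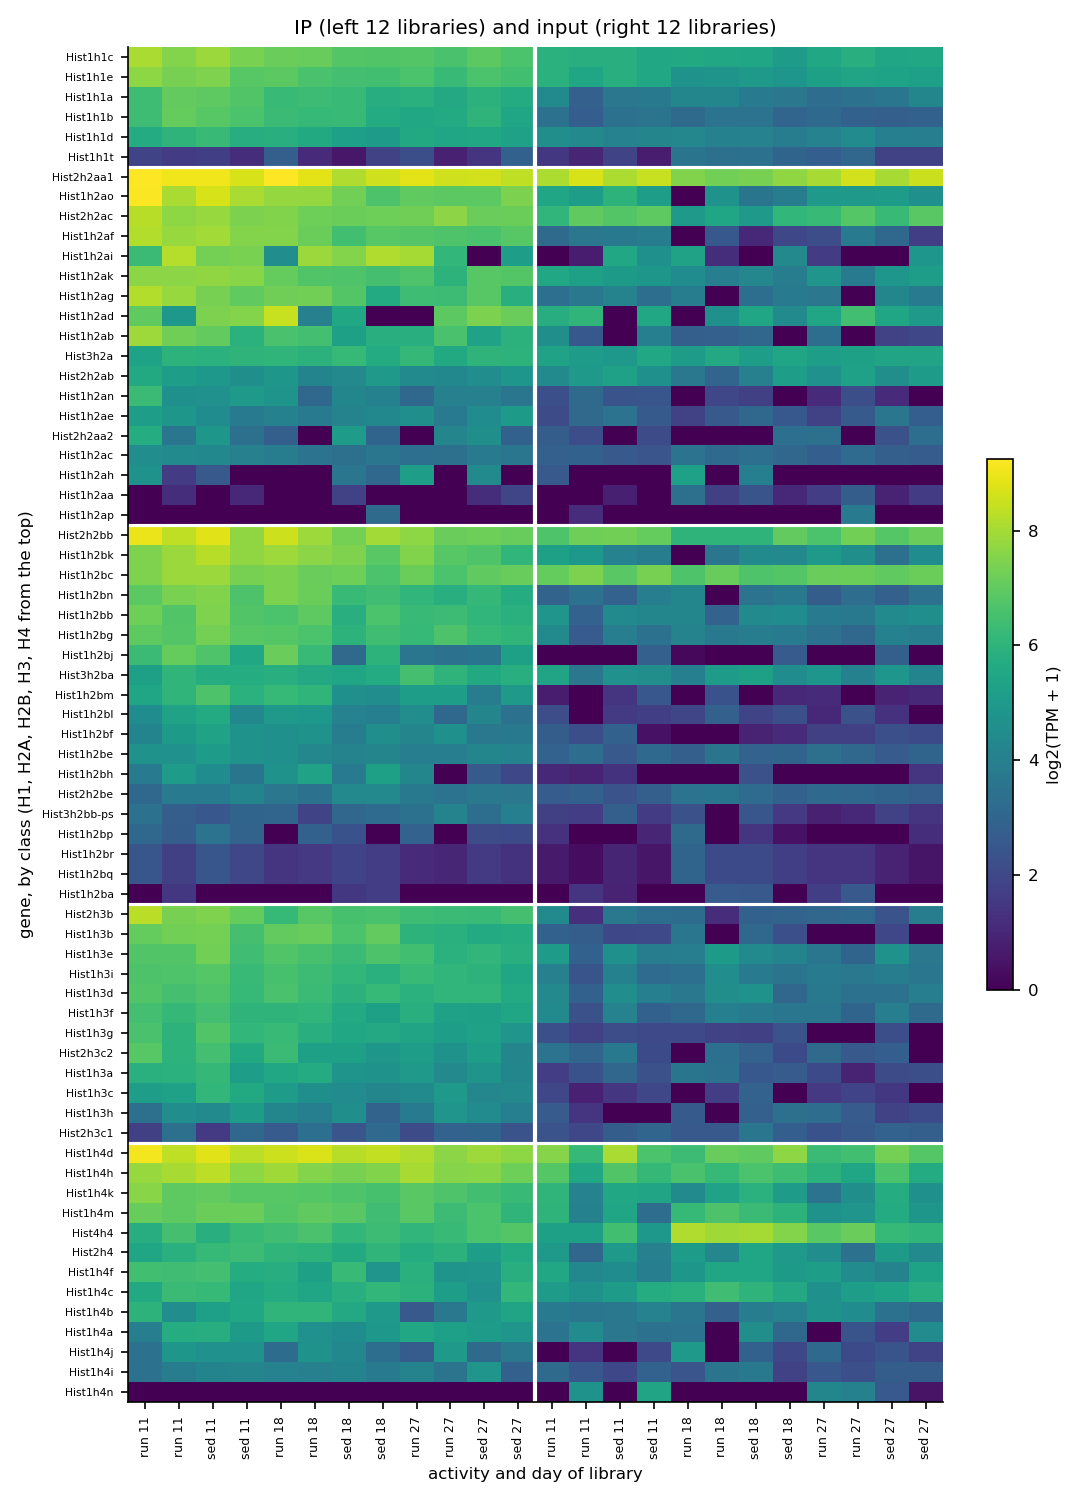
Level of each of the 68 members, as log2(TPM + 1), in each of 24 libraries; rows are genes grouped by class and ordered by their mean in the IP, columns are libraries with IP left of input. Most rows are brighter in the 12 IP columns, and 39 genes are above 0 in all 24 libraries.

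Of the 68 members, 39 were above 0 in all 24 libraries, 58 in all 12 IP libraries and 39 in all 12 input libraries. Testing was limited to genes averaging at least 1 TPM in the libraries fitted, and used limma on log2(TPM + 1). Hist1h2ap fell below this in the fit of all libraries. Hist1h2aa, Hist1h2ap, Hist1h2ba and Hist1h4n fell below it in the IP, and Hist1h2bh in input. A member was called where its Benjamini-Hochberg adjusted p over all tested genes was under 0.05.

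Against input, 56 of the 67 tested members were higher in the IP, where 41.4% of all 19507 tested genes were, and 4 were lower, against 28.5% of all genes. The median log2 difference of the members was 1.70, and that of all genes 0.12. In 33 members the lowest of 12 IP libraries lay above the highest of 12 input libraries, which held for 10.1% of all genes. Rescaling libraries by their median ratio moved the median of all genes by -0.24 and that of the members to 1.45.

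H3 genes showed the greatest gap between the fractions. Of 12, 11 were higher in the IP, with a median log2 difference of 2.68. Hist1h3b, which encodes a canonical H3, had lowest 49.0, median 114 and highest 159 TPM in the IP, against lowest 0, median 3.04 and highest 11.5 TPM in input. The fractions did not overlap, and 4 input libraries listed it at 0 (log2 difference 4.88, SE 0.35, adjusted p = 2.84e-08). Hist1h3g lay at 27.6 to 106 TPM in IP and 0 to 4.20 TPM in input (log2 difference 4.24, SE 0.19, adjusted p = 2.25e-12). Hist2h3c1 was the 1 H3 gene not called, at 2 to 9.79 TPM in IP and 2.92 to 11.4 TPM in input.

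**Figure D3:**
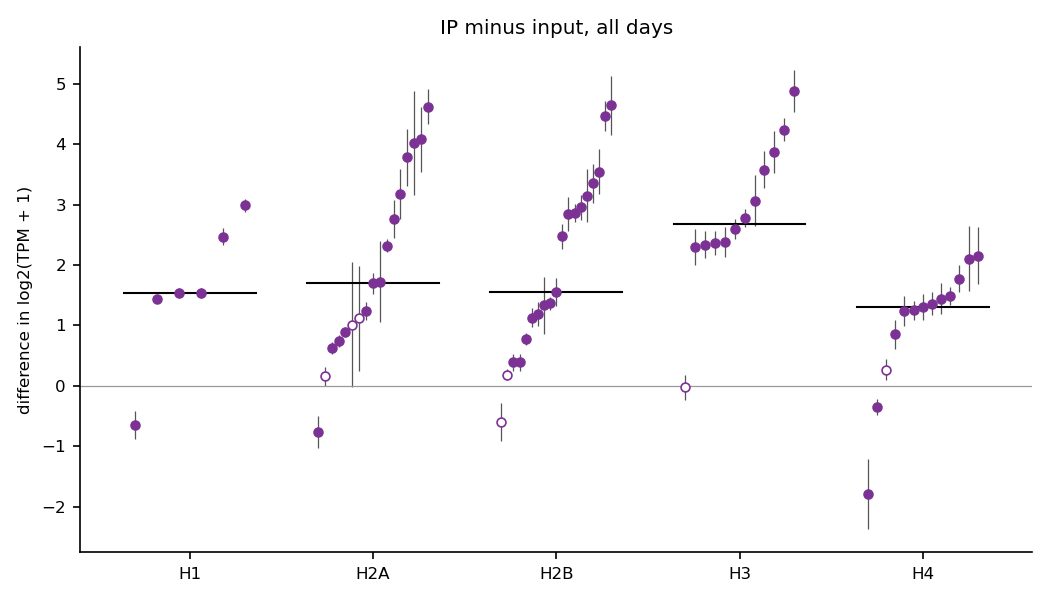
Difference in log2(TPM + 1), IP minus input over all days, for the 67 tested members by class, with standard errors; filled points passed an adjusted p of 0.05 in limma and the black line is the class median. The H3 median is 2.68 and the H4 median 1.30, and the 4 filled points below 0 are Hist1h4n, Hist1h2aa, Hist1h1t and Hist4h4.

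Among H2B genes 17 of 19 and among H2A genes 13 of 17 were higher in the IP, with medians of 1.55 and 1.70. Hist1h2bj lay at 8.23 to 139 TPM in IP and at 0 to 6.08 TPM in input, where 8 libraries listed it at 0 (log2 difference 4.64, SE 0.49, adjusted p = 1.67e-06). Hist1h2bm lay at 14.2 to 99.7 TPM in IP and 0 to 4.77 TPM in input (log2 difference 4.46, SE 0.25, adjusted p = 1.65e-10). Hist1h2af, an H2A gene, lay at 86.2 to 289 TPM in IP and 0 to 14.2 TPM in input (log2 difference 4.62, SE 0.28, adjusted p = 5.20e-09). None of these 3 overlapped between the fractions. Hist1h2bc did not pass the test, at 98.3 to 231 TPM in IP and 102 to 173 TPM in input, and its mean in input was the highest of the H2B genes. Hist2h2aa1, also abundant in input at 153 to 414 TPM, differed less than most members, at 285 to 608 TPM in the IP (log2 difference 0.74, SE 0.10, adjusted p = 2.86e-06).

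Of 6 H1 genes, 5 were higher in the IP (median 1.53), and of 13 H4 genes 10 were (median 1.30). Hist1h1b, the gene of H1.5, had 42.5 to 133 TPM in IP and 5.86 to 10.7 TPM in input (log2 difference 2.99, SE 0.11, adjusted p = 1.88e-14). Hist1h4d, the most abundant H4 gene, had 199.9 to 545 TPM in IP and 72.7 to 272 TPM in input, so that the fractions overlapped (log2 difference 1.36, SE 0.19, adjusted p = 8.22e-06).

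Those lower in the IP were 4 members. Hist1h4n was listed at 0 in all 12 IP libraries and in 6 input libraries, and lay between 0.39 and 40.8 TPM in the other 6 (log2 difference -1.79, SE 0.58, adjusted p = 0.0132). Its coding sequence is that of Hist1h4m, and the sum of both was 112 ± 25.2 TPM in the IP and 56.7 ± 19.6 TPM in input (SD, n = 12 each). Hist1h2aa, the gene of a testis H2A, had at most 2.80 TPM in the IP and 9.61 TPM in input (log2 difference -0.76, SE 0.26, adjusted p = 0.0157), and 7 IP and 3 input libraries listed it at 0. Hist1h1t, the testis linker histone, had 0.51 to 6.30 TPM in IP and 0.62 to 10.8 TPM in input (log2 difference -0.65, SE 0.24, adjusted p = 0.0207), and its call was lost without any of 3 IP libraries (running d of day 18, running f and sedentary e of day 27). Hist4h4 had 53.0 to 109.8 TPM in IP and 29.5 to 283 TPM in input (log2 difference -0.35, SE 0.14, adjusted p = 0.0291), and its call was lost in 10 of 24 fits that left out 1 library. At day 11 Hist4h4 had 53.0 to 91.8 TPM in IP and 29.5 to 87.4 TPM in input, and in the input of day 18 it had 186 to 283 TPM. Hist1h2aa and Hist1h1t had positive log2 differences at day 11. The part of the day 18 input libraries in these calls over all days was not tested. Another testis histone, Hist1h2ba, had at most 2.23 TPM in the IP and 5.36 TPM in input and did not pass.

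The count of members higher in the IP was 55 of 67 at day 11, 49 at day 18 and 45 at day 27, where 29.2%, 33% and 34.6% of all genes were. At day 11 none was lower (12.1% of all genes). At day 18 Hist1h1t, Hist1h2aa, Hist4h4, Hist1h2bq and Hist1h2br were lower (31% of all genes), a count of 5 that became 3 in 10 of 24 fits that left out 1 library. At day 27 only Hist1h4n was lower (14.3% of all genes), and that call was lost in 7 of 24 such fits. The differences at day 11 were largest for Hist1h2bj (log2 difference 5.70), Hist1h2bm (4.84), Hist1h3b (4.64), Hist1h2ai (4.57, lost in 6 of 24 fits without 1 library) and Hist2h3b (4.36). At day 18 they were largest for Hist1h2af (5.597), Hist1h2bj (4.93), Hist1h3b (4.69), Hist1h2bm (4.50) and Hist1h2bk (4.38). At day 27 they were largest for Hist1h3b (5.31), Hist1h3g (4.63), Hist1h2ab (4.14), Hist1h2bm (4.04) and Hist1h2af (4.03).

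Within the IP, histone levels at day 27 lay well under those at day 11. Of 64 tested members, 36 fell, where 3.88% of all 17282 tested genes did, and none rose, where 11.4% of all genes did. The median log2 difference was -0.85 for the members and 0.15 for all genes, and 32 members had their highest day 27 value below their lowest day 11 value, against 4.8% of all genes. Rescaling libraries moved the median of all genes by -0.13. The count of 36 was 23 without the sedentary IP library a of day 11 and 23 without the sedentary library f of day 27. Leaving out both IP libraries a of day 11, an alternative chosen after seeing the data, left 15.

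**Figure D4:**
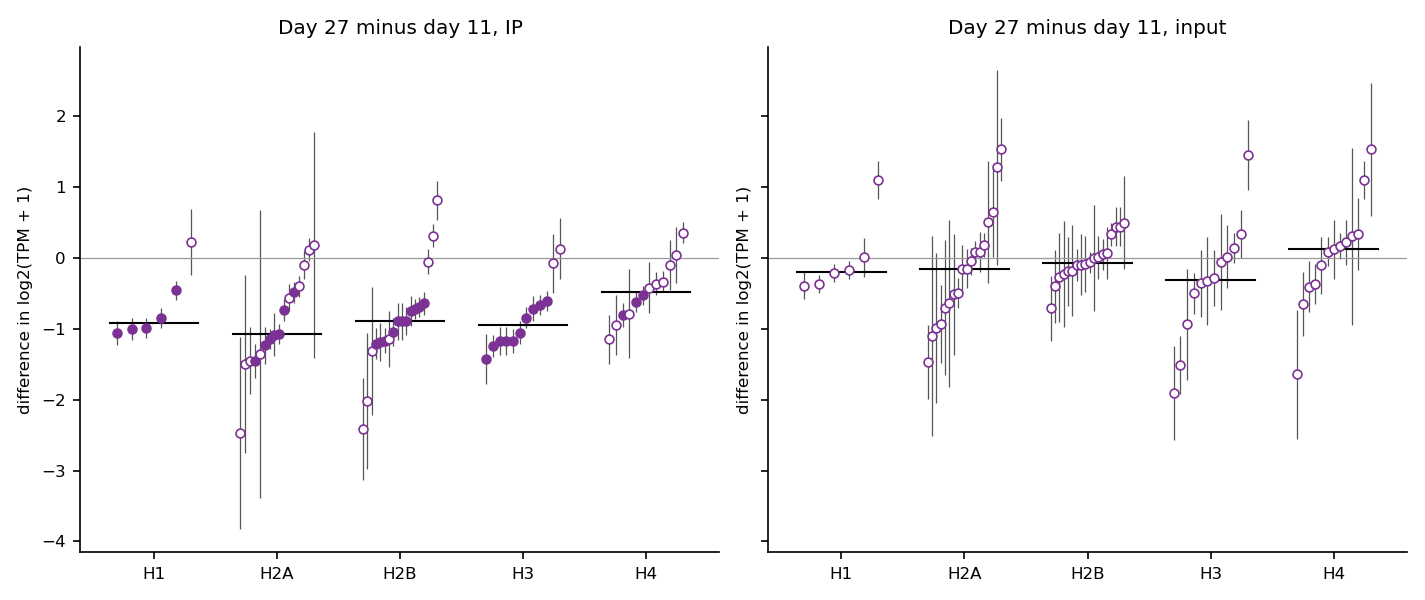
Difference in log2(TPM + 1), day 27 minus day 11, in the IP (left, 64 members) and in input (right, 67 members) by class, with standard errors; filled points passed an adjusted p of 0.05 in limma and the black line is the class median. In the IP 36 points are filled, all below 0, and in input none is.

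The fall was seen in every class. It was called for 10 of 12 H3 genes (median log2 difference -0.95), 5 of 6 H1 genes (-0.92), 11 of 18 H2B genes (-0.90), 7 of 16 H2A genes (-1.08) and 3 of 12 H4 genes (-0.48). The summed H3 level of day 27 was 0.502 of that of day 11, and the summed H4 level 0.698. H4 genes made up 23.4 ± 0.627% of the histone TPM at day 27 and 19.2 ± 1.10% at day 11 (SD, n = 4 each).

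Hist1h2ao had 125 and 119 TPM (running) and 119.8 and 171 TPM (sedentary) at day 27. At day 11 it had 582 and 271 TPM (running) and 411 and 269 TPM (sedentary) (log2 difference -1.45, SE 0.24, adjusted p = 0.00298). All day 27 values lay below all day 11 values, and the running library a was the highest. Hist1h3b had 62.4 and 56.9 TPM (running) and 49.0 and 51.5 TPM (sedentary) at day 27 and 134 and 153 TPM (running) and 159 and 90.4 TPM (sedentary) at day 11 (log2 difference -1.24, SE 0.15, adjusted p = 2.16e-04). Hist1h2bm, an H2B gene, had 35.5, 34.6, 14.2 and 29.9 TPM at day 27 and 42.4, 65.1, 99.7 and 59.6 TPM at day 11 (log2 difference -1.21, SE 0.22, adjusted p = 0.00481). In Hist1h3b and Hist1h2bm the days did not overlap.

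Hist1h1c, the most abundant linker histone, had 109, 94.6, 121 and 96.8 TPM at day 27 and 269, 184, 229.8 and 168 TPM at day 11, with no overlap (log2 difference -0.99, SE 0.14, adjusted p = 4.66e-04). Hist1h4d had 282, 199.9, 236 and 203 TPM at day 27 and 545, 329, 451 and 323 TPM at day 11, also with no overlap (log2 difference -0.81, SE 0.17, adjusted p = 0.00622). Hist2h3c2 (log2 difference -1.43, SE 0.35, adjusted p = 0.0307) and Hist1h2ag (log2 difference -1.23, SE 0.26, adjusted p = 0.0137) were among the 5 largest falls, but their calls were lost in 7 and 4 of 12 fits that left out 1 library. For Hist1h2ag these were the libraries a (running and sedentary) of day 11 and the running libraries e and f of day 27.

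The genes outside the Hist1 and Hist2 clusters were not called. Hist3h2a, an H2A gene of the small Hist3 cluster, had 69.7, 47.6, 63.4 and 62.6 TPM at day 27 and 40.4, 62.6, 58.9 and 64.1 TPM at day 11 (log2 difference 0.11, SE 0.16, adjusted p = 0.657). Its days overlapped throughout. Hist4h4 had 67.3, 75.5, 98.5 and 109.8 TPM at day 27 and 53.0, 91.8, 56.6 and 74.2 TPM at day 11 (log2 difference 0.35, SE 0.15, adjusted p = 0.126), and these overlapped as well. The log2 differences of the 3 Hist3 genes and of Hist4h4 were all positive, from 0.11 to 0.80, and none passed the test. By contrast 47 of 50 tested Hist1 genes had a negative difference, 32 of them called, and 9 of 10 Hist2 genes, 4 of them called. Both genes and this grouping were chosen after their values were seen.

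**Figure D5:**
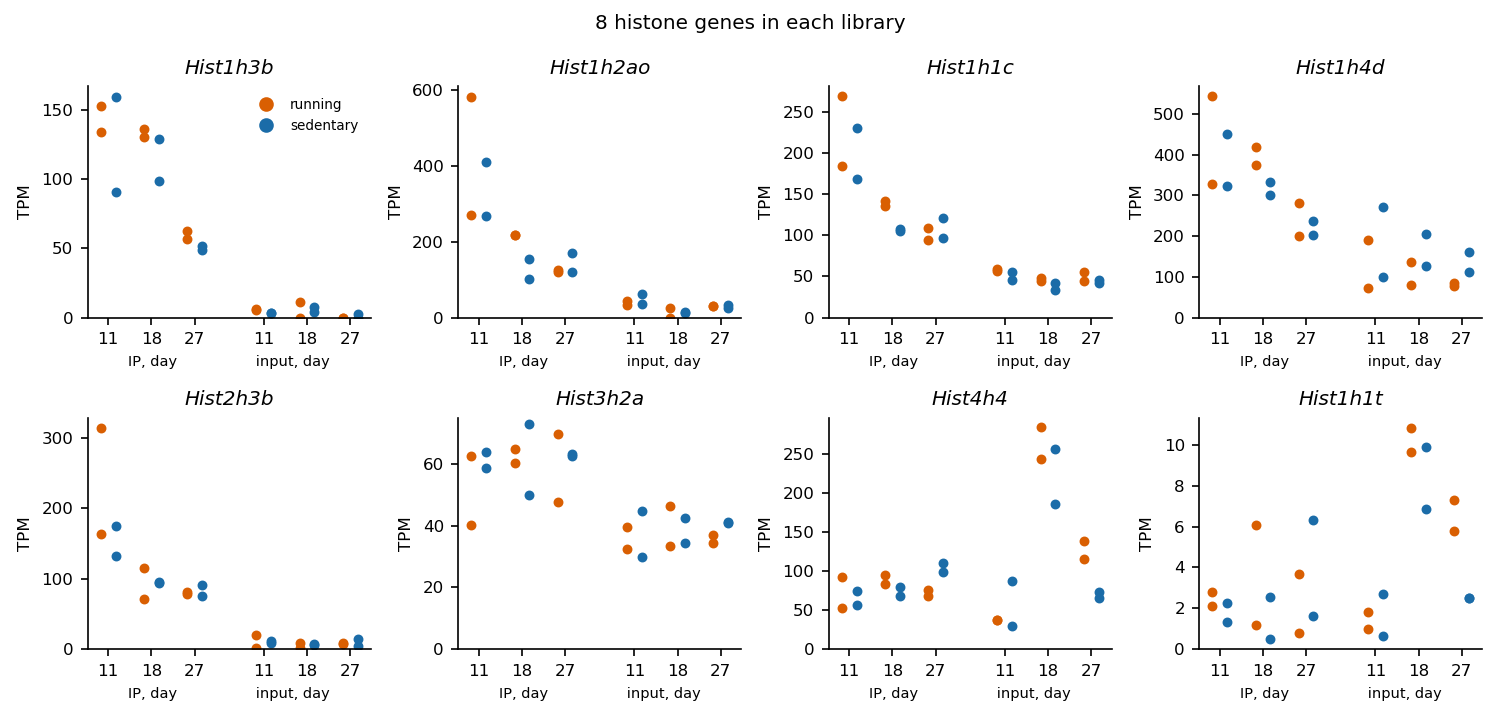
TPM of 8 histone genes in each library, with IP left of input, days from low to high and running left of sedentary; each point is 1 library. Hist1h3b, Hist1h2ao, Hist1h1c, Hist1h4d and Hist2h3b are lower in the IP at day 27 than at day 11, Hist3h2a lies at 40.4 to 73.0 TPM in IP and 29.8 to 46.4 TPM in input, and Hist4h4 and Hist1h1t have their highest means in the input of day 18.

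Sorted by the annotated end of the transcript, members whose transcript stops within 100 bases of the stem-loop had a median log2 difference of -1.12 between day 27 and day 11 in the IP, negative in 20 of 20 tested and called in 12. Members whose transcript runs on had a median of -0.65, negative in 17 of 22 and called in 11. This group holds Hist3h2a, Hist3h2ba and Hist4h4, none of which fell. Members without the pattern and without an annotated 3′ UTR had a median of -1.08, negative in 11 of 11 and called in 6. Those without the pattern but with a 3′ UTR had a median of -0.90, negative in 8 of 10 and called in 7. Of all genes 3.88% were called as falling. This grouping was made after the data were seen, the gene models differ in completeness, and no test of it was made.

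The fall was already partly present at day 18. Between day 18 and day 11, 13 of 64 members fell (1.1% of all genes) and none rose (4.56% of all genes), with a median of -0.51. Hist1h3c had 33.1, 23.4, 20.9 and 18.2 TPM at day 18 and 35.8, 38.3, 68.8 and 48.3 TPM at day 11 (log2 difference -0.96, SE 0.16, adjusted p = 0.00661). Neither its days nor those of Hist1h2ak (log2 difference -0.89, SE 0.14, adjusted p = 0.00661) overlapped, while those of Hist1h2af did (log2 difference -0.87, SE 0.14, adjusted p = 0.00661). Hist1h2ao (log2 difference -1.13, SE 0.24, adjusted p = 0.0225) and Hist2h3b (log2 difference -0.997, SE 0.20, adjusted p = 0.0162) lost their calls in 4 and 3 of 12 fits without 1 library. The count of 13 was 8 without the running IP library a and 3 without the sedentary library a of day 11. It was 7, 5 and 6 without the running libraries c and d and the sedentary library d of day 18, and 0 without both libraries a of day 11.

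From day 18 to day 27, Hist1h3b alone among the 64 members fell (0.0521% of all genes) and none rose (0.0694% of all genes). It had 62.4, 56.9, 49.0 and 51.5 TPM at day 27 and 130.1, 136, 98.9 and 129 TPM at day 18, with no overlap (log2 difference -1.15, SE 0.15, adjusted p = 0.00915). Its day 18 values lay in the range of its day 11 values. The call was lost without any of 4 libraries (running c and sedentary d of day 18, sedentary e and f of day 27). The comparisons of day 27 with day 11 and with day 18 share the day 27 libraries, and the falls from day 11 share those of day 11. Hist1h2bn had the next lowest p and did not pass (log2 difference -0.88, SE 0.17, adjusted p = 0.0677). At unadjusted p under 0.05, 16 of 64 members differed between day 27 and day 18, against 13.3% of all genes.

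Genes of the dividing cell moved with the histones in part. All 15 G2 and M phase genes were higher in the IP than in input, and 12 of 15 fell between day 27 and day 11 in the IP, none rising. Of all tested genes, 41.4% were higher and 28.5% lower in the IP than in input, and within the IP 3.88% fell and 11.4% rose by day 27. Top2a, which untangles DNA, averaged 31.9 ± 3.33 TPM at day 27 and 79.8 ± 12.9 TPM at day 11 in the IP (SD, n = 4 each; log2 difference -1.29, SE 0.14, adjusted p = 1.03e-04). Cenpf of the kinetochore fell too (log2 difference -1.12, SE 0.14, adjusted p = 2.16e-04), as did Ccna2, cyclin A2 (log2 difference -0.57, SE 0.13, adjusted p = 0.0106). Of 25 S phase genes 21 were higher and 1 lower in the IP than in input, and in the IP 10 fell and 2 rose by day 27. The 2 that rose were Tyms and E2f1, and Pcna, the sliding clamp of replication, did not pass (log2 difference -0.45, SE 0.16, adjusted p = 0.0659). Of 10 immature neuron markers 3 fell, and of 8 mature granule neuron markers 5 rose, among them Camk2a (log2 difference 0.95, SE 0.14, adjusted p = 4.97e-04). Their part in the histone result was not tested.

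Histone genes that are not members and were listed as replication-independent were tested too. The list was not checked for genes that are also used in S phase. Of 11 replication-independent histone genes, 10 were higher in the IP than in input (median log2 difference 0.72), among them H3f3b, a gene of H3.3 (log2 difference 0.74, SE 0.08, adjusted p = 1.17e-07), and H2afz, that of H2A.Z (log2 difference 0.32, SE 0.07, adjusted p = 3.64e-04). In the IP 3 of 11 fell by day 27 (median -0.39), H2afz among them (log2 difference -0.50, SE 0.13, adjusted p = 0.0179). H3f3a and H3f3b had log2 differences of -0.46 and -0.44 and did not pass. The difference between these genes and the clustered ones was not tested. Of 15 genes of histone transcription and 3′ processing, 11 were higher in the IP than in input, and by day 27 in the IP Sympk rose and Slbp, the stem-loop binder itself, fell (log2 difference -0.52, SE 0.14, adjusted p = 0.0236). Cpsf3, the nuclease that cuts histone messages after the stem-loop, had a log2 difference of -0.29 between day 27 and day 11 and did not pass, nor did Srrt (-0.14) and Ncbp1 (0.03). Of 15 histone chaperones, 12 were higher and 2 lower in the IP than in input, and 1 rose and 3 fell by day 27, Nap1l1 among the 3 (log2 difference -0.41, SE 0.12, adjusted p = 0.0365). Atrx and Rbbp7, also abundant, had log2 differences of -0.17 and -0.03 and did not pass. The shares of all genes beside these lists are those given for the dividing-cell genes, 41.4% higher and 28.5% lower in the IP, and 3.88% falling and 11.4% rising by day 27.

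In input the sum stayed within 1531 to 1967 TPM on all days, but its makeup at day 18 was different. H4 genes gave 44.7 ± 2.49% of the histone TPM at day 18, against 26.6 ± 7.32% at day 11, and H2A genes 23.4 ± 2.91% against 38.3 ± 7.51% (SD, n = 4 each). Between day 18 and day 11, 9 of 67 members rose (37.8% of all 20462 tested genes) and 11 fell (11.4% of all genes). Of the 11 that fell, 7 were H2A genes, and 3 of the 9 that rose were H4 genes. Without the running input library a of day 11, 16 members rose.

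Hist4h4 rose most. It had 283 and 243 TPM (running) and 256 and 186 TPM (sedentary) at day 18 and 36.9 and 36.8 TPM (running) and 87.4 and 29.5 TPM (sedentary) at day 11 (log2 difference 2.44, SE 0.26, adjusted p = 1.25e-04). The days did not overlap, and the running libraries of day 27, at 116 and 138 TPM, and the sedentary ones, at 73.1 and 65.5 TPM, lay below those of day 18. Hist1h1t had 10.8, 9.63, 9.90 and 6.85 TPM at day 18 and 1.81, 0.99, 2.71 and 0.62 TPM at day 11 (log2 difference 2.08, SE 0.27, adjusted p = 2.41e-04). Hist1h2aa (log2 difference 1.95, SE 0.44, adjusted p = 0.00385) and the identical pair Hist1h2bq and Hist1h2br (log2 difference 1.59, SE 0.27, adjusted p = 8.91e-04) rose as well. Testis histone genes act mainly in germ cells, and the olfactory receptor genes were high in the same 4 libraries (above). The part of that background in these rises was not tested.

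Abundant H2A genes of the Hist2 cluster were among those that fell in input at day 18. Hist2h2aa1 had 179, 153, 162 and 209.8 TPM at day 18 and 273, 414, 279 and 357 TPM at day 11 (log2 difference -0.90, SE 0.19, adjusted p = 0.00295). Hist2h2ac had 31.2, 43.7, 30.0 and 69.4 TPM at day 18 and 67.0, 126, 109 and 122 TPM at day 11 (log2 difference -1.31, SE 0.28, adjusted p = 0.00284). The days did not overlap in Hist2h2aa1 and overlapped by 1 library in Hist2h2ac. Hist1h2ao fell with a value of 0 in 1 library of day 18 (log2 difference -2.39, SE 0.85, adjusted p = 0.0472), and its call was lost in 10 of 12 fits without 1 library. Hist1h2af, Hist1h2an and Hist1h2bf also fell, by 2.23, 1.65 and 1.56 on the log2 scale. For Hist1h2an the call was lost in 4 of 12 fits without 1 library (running b and sedentary b of day 11, running c and sedentary d of day 18). From day 18 to day 27, 6 members rose (10.4% of all genes) and 7 fell (26.7%), Hist4h4 among the 7 (log2 difference -1.34, SE 0.26, adjusted p = 0.00789) and Hist2h2ac among the 6 (log2 difference 1.15, SE 0.28, adjusted p = 0.0138). The other largest falls were those of Hist1h3g (-1.44), Hist1h3a (-1.24) and the pair Hist1h2bq and Hist1h2br (-1.15), and the other largest rises those of Hist1h2bf (1.47), Hist2h2ab (0.94), Hist2h2aa1 (0.84) and Hist2h2bb (0.69), as log2 differences. Without 1 library (sedentary c of day 18, running f, sedentary e or sedentary f of day 27) the 6 became 0, 3, 3 and 1. The 7 became 2, 4 and 3 without sedentary c of day 18, running e or sedentary f of day 27. Between day 27 and day 11 no member was called in input by limma and neither was any other gene (0%), while 9 of 67 members and 14.3% of all genes had an unadjusted p under 0.05, lowest among members for Hist4h4 (log2 difference 1.09, SE 0.26, adjusted p = 0.0982) and Hist1h1t (log2 difference 1.09, SE 0.27, adjusted p = 0.101).

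Whether the change with time differed between IP and input was tested directly, and no member's was higher in the IP (1.46% of all genes). The log2 difference between day 27 and day 11 was lower in the IP than in input for 2 of 67 members, where 0.323% of all genes were. They were Hist1h2ac (log2 difference -0.92, SE 0.22, adjusted p = 0.0377) and Hist1h1c (log2 difference -0.78, SE 0.19, adjusted p = 0.0456). Hist1h2ac had 9.45, 9.67, 13.5 and 11.5 TPM at day 27 and 22.0, 19.9, 19.0 and 15.3 TPM at day 11 in the IP. In input it had 5.75, 8.38, 5.94 and 5.42 TPM at day 27 and 6.13, 6.34, 5.03 and 4.44 TPM at day 11, and the days overlapped there but not in the IP. The calls were lost in 12 and 18 of 24 fits without 1 library, and the count ran from 0 to 6 and was 0 without both IP libraries a. The median over members was -0.67, negative in 55 of 67, and that of all genes -0.01. For all other members the fall in the IP was not shown to differ from input.

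No single histone gene passed the test between running and sedentary mice in the main fit. With the library letter as replicate block, 4 members were higher with running in the IP (125 of all 17282 genes). At day 18, 1 was then higher and 1 lower (9 and 9 of all genes). Unless a block is named, running results are those of the main fit. In the IP none of 64 members was called in either direction (0% of all genes higher, 0.00579% lower), and at unadjusted p under 0.05 there were 12 members, against 14.2% of all genes. The median log2 difference, running minus sedentary, was 0.15 for the members and -0.07 for all genes, with 48 of 64 members positive. How many of all genes were positive was not counted. Members were read in the same libraries and some share sequence, so their signs are not independent. The lowest p-values were those of Hist2h2aa1 (log2 difference 0.40, SE 0.12, adjusted p = 0.21) and Hist1h2ab (log2 difference 0.90, SE 0.25, adjusted p = 0.211). Hist2h2aa1 had 608 and 532 TPM (running) and 524 and 415 TPM (sedentary) at day 11, and the groups overlapped over the days.

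Per day, a comparison added after the data were seen, the sum of all members was 1.10, 1.35 and 1.10 times as high in running as in sedentary IP libraries at days 11, 18 and 27. At day 18 the running libraries held 6156 and 5339 TPM and the sedentary ones 4207 and 4332 TPM. In every class both running libraries lay above both sedentary ones. The classes share these libraries, and how many of all genes separate in this way was not counted. No member was called at day 18 (0% of all genes in either direction), where 51 of 64 were positive and 14 had an unadjusted p under 0.05 by limma, against 8.97% of all genes. The median log2 difference at day 18 was 0.30 for the members and -0.01 for all genes, and how many of all genes were positive was not counted. Hist1h2bm had 73.3 and 65.5 TPM (running) and 23.7 and 21.9 TPM (sedentary) there (log2 difference 1.56, SE 0.32, adjusted p = 0.324). None was called at day 11 (0% of all genes in either direction) or at day 27 (0.00579% of all genes higher, 0.0231% lower), with 6 and 9 at unadjusted p under 0.05, against 4.81% and 9.92% of all genes. In the 3 comparisons of the running effect between days no member was called either (0.00579% of all genes lower at day 27 against day 18, otherwise 0%), with 8 members at unadjusted p under 0.05 for day 18 against day 11 (3.87% of all genes), 5 for day 27 against day 18 (4.8%) and 8 for day 27 against day 11 (7.19%).

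In input none of 67 members was called for running (0% of all genes in either direction), and 6 had an unadjusted p under 0.05 by limma, against 4.19% of all genes. The lowest were Hist2h3c1 (log2 difference -0.57, SE 0.17, adjusted p = 0.953) and Hist2h2be (log2 difference 0.32, SE 0.13, adjusted p = 0.953). Taken day by day none was called either, where at day 18 0.00489% of all genes were higher and 0.00489% lower. The difference of the running effect between IP and input was called for no member (0% of all genes), with 7 at unadjusted p under 0.05 (5.98% of all genes), lowest for Hist2h2be (log2 difference -0.77, SE 0.19, adjusted p = 0.803) and Hist1h2aa (log2 difference -1.27, SE 0.53, adjusted p = 0.803). These p-values do not show that running and sedentary mice were alike.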

How the data were processed

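Members and gene lists were chosen with earlier results of these data known. Length-scaled transcript shares (TPM) of 23306 genes in 24 libraries were deposited by the authors; RSEM and mm10 are named in the submitters' processing notes, while the sources used here give no annotation, strand setting or version. Each library sums to 1000000 TPM, so depth is unknown. limma 3.58.1 in R 4.3.3 (trend and robust) was fitted on log2(TPM + 1) to genes with a mean of at least 1 TPM, over all 24 libraries for IP against input and over the 12 of a fraction for days and running, with Benjamini-Hochberg adjustment over all tested genes at 0.05. Fold changes on this scale understate those of low genes. Counts of members by sign stand without the share of all genes of that sign, which was not counted, and the members are not independent of each other. Named were the 3 most abundant members of each class, the 5 largest called differences in each direction (or the 2 lowest p-values) and the 3 most abundant genes of each other list, with cell type markers mostly as counts; other genes named were chosen after their values were seen. The fit was tested on simulated data. Alternatives were the pseudocount, the filter, scaling, a block for the letter, and leaving out libraries. Letters a and b belong to day 11, c and d to day 18, and e and f to day 27. The block could therefore not be fitted to comparisons of days within a fraction, the fall in the IP among them. For these, differences between days and between such letter pairs cannot be told apart.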

Additional observations from a re-analysis of the deposited data

Results flagged for a closer look

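In 270 groups of 4 libraries (a fraction at a day, running and sedentary together), 20 values were marked as apart from the other 3 by Dixon's ratio. Chance would mark about 1 in 20 groups if values were smoothly spread, which TPM with many values of 0 are not. Where the other 3 libraries are all at 0, any value above 0 is marked, however small. The count of 20 can therefore not be set against that rate.

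The summed H4 level was 551 TPM in sedentary library e of day 27 in input, the highest of 4, against 427 to 432 TPM. Hist1h2aa was 2.49 TPM in sedentary library c of day 18 in the IP, the highest of 4, against 0 in each of the other 3. Hist1h2aa was 0.74 TPM in sedentary library a of day 11 in input, the highest of 4, against 0 in each of the other 3. Hist1h2ai was 28.4 TPM in sedentary library f of day 27 in input, the highest of 4, against 0 to 2.04 TPM. Hist1h2an was 78.6 TPM in running library a of day 11 in the IP, the highest of 4, against 23.8 to 30.9 TPM. Hist1h2ao was 171 TPM in sedentary library f of day 27 in the IP, the highest of 4, against 119 to 125 TPM. Hist1h2bj was 37.2 TPM in sedentary library f of day 27 in the IP, the highest of 4, against 10.2 to 11.5 TPM. Hist1h2bj was 6.08 TPM in sedentary library b of day 11 in input, the highest of 4, against 0 in each of the other 3. Hist1h2bj was 5.36 TPM in sedentary library d of day 18 in input, the highest of 4, against 0 to 0.16 TPM. Hist1h2bj was 6.02 TPM in sedentary library e of day 27 in input, the highest of 4, against 0 in each of the other 3.

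Hist1h3a was 0.83 TPM in running library f of day 27 in input, the lowest of 4, against 3.27 to 3.71 TPM. Hist1h3b was 2.93 TPM in sedentary library e of day 27 in input, the highest of 4, against 0 in each of the other 3. Hist1h3c was 30.2 TPM in running library f of day 27 in the IP, the highest of 4, against 18.7 to 20.5 TPM. Hist1h3g was 3.65 TPM in sedentary library e of day 27 in input, the highest of 4, against 0 in each of the other 3. Hist2h2ac was 178 TPM in running library c of day 18 in the IP, the highest of 4, against 143 to 148 TPM. Hist2h2ac was 200.3 TPM in running library f of day 27 in the IP, the highest of 4, against 139.8 to 149.9 TPM. Hist2h2bb was 206 TPM in running library e of day 27 in the IP, the highest of 4, against 136 to 147 TPM. Hist2h2bb was 130.2 TPM in sedentary library d of day 18 in input, the highest of 4, against 63.1 to 64.1 TPM. Hist2h3c1 was 11.4 TPM in sedentary library c of day 18 in input, the highest of 4, against 4.92 to 5.83 TPM. Hist4h4 was 87.4 TPM in sedentary library a of day 11 in input, the highest of 4, against 29.5 to 36.9 TPM.

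The change between day 27 and day 11 differed between IP and input by a test of the difference itself for Hist1h1c (log2 difference -0.78, SE 0.19, adjusted p = 0.0456) and Hist1h2ac (log2 difference -0.92, SE 0.22, adjusted p = 0.0377), by limma. These calls were lost in 18 and 12 of 24 fits without 1 library.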

How the results depend on the processing

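For 72 results for single genes there were 1641 combinations of a result with an alternative setting. Of these, 1460 stayed on their side of the threshold, 173 lost a call, 8 gained one and 0 reversed. With a mean of at least 5 TPM required, members lower in the IP than in input numbered 1 over all days, 1 at day 18 and 0 at day 27. Under it, 2 fell between day 27 and day 18 and 1 rose between day 27 and day 11 in the IP, and in input 7 fell by day 18 and 4 from day 18 to day 27. A pseudocount of 0.1 gave 1 lower at day 11 and 3 at day 18. Median-of-ratios scaling gave 1 lower at day 11 and 2 at day 27, and without the day 18 libraries 0 were lower at day 27. Without both IP libraries a, chosen after seeing the data, 2 members were lower in the IP than in input, 0 fell between day 18 and day 11, 3 between day 27 and day 18 and 15 between day 27 and day 11. The 2 members whose day change differed between IP and input became 1 with no filter, 1 with scaling, 0 with the replicate block, 0 without day 18 and 0 without both IP libraries a.

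With the library letter as replicate block, 3 members were lower in the IP at day 18, 4 were higher with running in the IP (125 of all 17282 genes), and at day 18 1 was higher and 1 lower (9 and 9 of all genes). The running effect was lower at day 18 than at day 11 for 1 member (2 of all genes) and higher at day 27 than at day 18 for 1 (5 of all genes). Deviations of running and sedentary libraries with the same letters correlated at 0.197, 0.0484 and 0.0568 in the IP on days 11, 18 and 27. In input they correlated at 0.268, 0.0795 and 0.0816. As not all were over 0.1, the main fit holds no block for the letter. At day 11, H2A genes gave 31.4% (running) and 32.8% (sedentary) of the histone TPM in input libraries a and 47.2% and 41.8% in b. This share also separated by letter in input at day 27, but not at day 18, nor in the IP at day 11. What the letter marks is not given, so its libraries may share more, which the main p-values do not account for.

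Summed TPM without the most abundant member of each class were 5251, 3751 and 2997 in the IP and 1147, 1242 and 1070.3 in input at days 11, 18 and 27. Sums over all members with scaling were 3415 in the IP of day 27 and 2140.2, 1765 and 1813 in input. The causes were not tested.

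Leaving out 1 library gave 0 to 1 lower in the IP at day 11, 3 to 5 at day 18 and 0 to 1 at day 27. In the IP, 0 to 1 rose and 3 to 16 fell by day 18, 0 to 2 fell from day 18 to day 27, and 0 to 2 rose and 23 to 38 fell from day 11 to day 27. In input, 7 to 16 rose by day 18, 0 to 7 rose and 2 to 9 fell from day 18 to day 27, and 0 to 2 rose from day 11 to day 27. The day change differed for 0 to 6 members, and with running at day 18, 0 to 1 was higher in the IP and 0 to 2 lower in input. Where no number for all genes stands beside a count in this section, the share of all genes called in the same fit is not given. Such counts show only how far the main count moved. TPM hold no depth, so low values carry an unknown counting error.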
